A study of Mus musculus with 16 samples.

Results

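Transcripts of 9 myelin and oligodendrocyte genes, Mbp, Mobp, Mag, Mog, Cnp, Mal, Cldn11, Cryab and Trf, were followed in RNA of CD11b+ cells sorted from mouse brain. The genes were taken by symbol, and all 9 had a row among the 55385 genes of the count table. Of the 14513 genes that passed the filter on low counts, 7 were members of this group, while Mog and Cldn11 had too few reads. Trf alone made up between 73.1% and 90.1% of the reads of the 9 genes in a library. Among the 7 genes tested, Mbp varied most closely with Mobp from library to library, and Trf with Cnp and Mag. Genes outside the group came closer still to Mbp and to Trf. None of the 7 differed between genotypes after correction. The name of the group held only in part. Levels are given as CPM, that is counts scaled to a common library size. Sox10 (at most 0.981 CPM), Olig1 (at most 0.941 CPM) and Opalin (at most 0.910 CPM) stayed near 0 in every library. These genes define oligodendrocytes or their lineage. Not all such genes were that low. Of 34 other myelin and oligodendrocyte genes 13 passed the filter, among them Plekhb1 (at most 38.1 CPM). Ermn did not pass but reached 5.89 CPM and had reads in 15 libraries.

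The cells were taken with CD11b magnetic beads from brains of mice at 20 weeks, after perfusion and removal of the meninges and choroid plexus. The paper names female 5xFAD mice among those obtained for its crosses and does not give the sex of the mice sequenced. Neutrophils, monocytes and macrophages carry the surface protein CD11b as microglia do, so all of these can be held by the beads. The 4 genotypes were WT (Card9 intact, no 5xFAD transgenes), Card9-/- (germline deletion of Card9, no transgenes), 5xFAD (the transgenes with Card9 intact) and Card9-/-5xFAD (the transgenes with the deletion), each with 4 libraries numbered as replicates. The 5xFAD transgenes are human genes with mutations of familial Alzheimer's disease, driven by the neuronal Thy1 promoter. CARD9 is an adaptor that relays signals from C-type lectin receptors in myeloid cells, and a germline deletion removes it from all other cells as well. The labels do not say that each replicate was a separate mouse, so p-values measure the spread between these libraries, which may be technical.

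Myelin is the membrane that oligodendrocytes wrap around axons. MBP and MOBP hold its compact layers together from the cytoplasmic side, MAG and MOG sit at its innermost and outermost surfaces, CNP keeps cytoplasmic channels open, MAL is a proteolipid of the compact layers, and CLDN11 forms tight junctions between them. CRYAB is a small heat shock protein of oligodendrocytes and astrocytes, and TRF (transferrin) is an iron carrier made in the brain by oligodendrocytes and the choroid plexus.

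Sequences before the start of Mobp, Cnp and Mag are shown for a contrast over the 16 libraries. Cnp and Mag each correlated with Trf (r = 0.92 and 0.87), while Mobp gave r between 0.15 and 0.35 with Cnp, Mag and Trf. Without the 2 libraries farthest from its median, Mobp gave 0.52 with Cnp, 0.59 with Mag and 0.67 with Trf. RefSeq gave a start for 6 of the 9 genes, Mobp, Mag, Mog, Cnp, Mal and Cldn11. The 250 bases before the start are printed 5′ to 3′ along the gene, in build GRCm38.p6, and for Mag the most upstream of 3 starts was used. The window of Mobp is chr9:120149492-120149741 on the plus strand. The window of Cnp is chr11:100574689-100574938 on the plus strand. The window of Mag is chr7:30914923-30915172 on the minus strand. Capitals mark 4 words searched on both strands: ACAAAG and ACAATG, core words bound by SOX factors, and CTGGCAC and CTGGTAC, words of the oligodendrocyte factor MYRF. The words do not overlap each other in these windows.
Mobp: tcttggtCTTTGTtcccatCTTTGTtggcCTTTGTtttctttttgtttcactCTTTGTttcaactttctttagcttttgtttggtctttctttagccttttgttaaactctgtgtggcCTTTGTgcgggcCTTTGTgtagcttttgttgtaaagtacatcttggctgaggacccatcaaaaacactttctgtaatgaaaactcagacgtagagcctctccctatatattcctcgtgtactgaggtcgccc
Cnp: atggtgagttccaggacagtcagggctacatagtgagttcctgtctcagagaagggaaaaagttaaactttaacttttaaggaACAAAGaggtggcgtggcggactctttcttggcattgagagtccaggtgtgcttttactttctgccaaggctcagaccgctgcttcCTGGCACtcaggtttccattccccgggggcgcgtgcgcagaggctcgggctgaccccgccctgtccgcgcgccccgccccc
Mag: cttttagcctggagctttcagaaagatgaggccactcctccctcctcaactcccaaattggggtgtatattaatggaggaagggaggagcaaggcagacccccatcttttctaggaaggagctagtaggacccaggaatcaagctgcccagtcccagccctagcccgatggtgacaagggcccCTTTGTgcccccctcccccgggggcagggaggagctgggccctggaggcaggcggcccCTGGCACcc
The Mobp window held ACAAAG 6 times, each as its reverse complement CTTTGT, and was the 1 window of 32851 in the table with as many as 6. ACAAAG was found in 16.5% of all windows, ACAATG in 10.7%, CTGGCAC in 4.19% and CTGGTAC in 1.83%. Cnp and Mag each held ACAAAG 1 time and CTGGCAC 1 time, and neither ACAATG nor CTGGTAC was found in the 3 windows printed. For Mag this depends on the start. Its window at chr7:30914864-30915113 held the same words, but that at chr7:30914322-30914571 held none of the 4. Of the other genes with a start, Mog held CTGGTAC 1 time, while Mal and Cldn11 held none of the 4. These matches describe letters and are not evidence of binding.

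Between 2970148 and 19333325 reads per library fell on genes. Markers of microglia (14 genes) summed to between 27464 and 60401 CPM and markers of neurons (12 genes) to between 3.99 and 53.6 CPM. Markers of astrocytes (12 genes) summed to 177 to 509 CPM, of endothelial cells (10 genes) to 98.4 to 311 CPM, of border-associated macrophages (6 genes) to 370 to 1695 CPM and of monocytes (6 genes) to 106 to 452 CPM. Libraries stood apart by markers of the choroid plexus and ependyma (10 genes), whose sum ran from 15.4 to 1632 CPM in WT, from 49.0 to 2533 in Card9-/-, from 266 to 1344 in 5xFAD and from 3.16 to 1135 in Card9-/-5xFAD. Ttr (transthyretin), made by the choroid plexus, had the highest median of the 10, 378 CPM, but its lowest level was 0.197 CPM. Between 3 and 9 of the 10 markers had a read in each library. The highest sum of each genotype was in WT replicate 1, Card9-/- replicate 4, 5xFAD replicate 1 and Card9-/-5xFAD replicate 4. The sum of 6 neutrophil markers was highest in its genotype in the same 4 libraries, at 3584, 6259, 2092 and 5956 CPM, against 485 to 2189 CPM in the other 12. Markers of astrocytes (368, 509, 266 and 398 CPM), of border-associated macrophages (1432, 1695, 646 and 1579 CPM) and of monocytes (452, 289, 334 and 233 CPM) were also highest of their genotype there. Markers of microglia were lowest of their genotype in 3 of the 4, at 29721 CPM in WT replicate 1, 42860.0 in 5xFAD replicate 1 and 32816 in Card9-/-5xFAD replicate 4, while Card9-/- replicate 4, at 28269, lay above replicate 2 at 27464. Card9 was counted at 13.6 to 51.3 CPM in WT, 16.7 to 34.8 in Card9-/-, 15.6 to 33.5 in 5xFAD and 9.73 to 33.7 in Card9-/-5xFAD. Counts per gene do not show which exons were read, so they check nothing about the deletion.

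Levels of different genes were compared as CPM per kilobase of exon, with the exons of all annotated transcripts of a gene merged. The order depends on this length, which was 8469 bases for Mbp and 3639 for Cnp. In CPM without it the medians were 209 for Mbp and 108 for Cnp. Trf was the most abundant of the 9 genes, with a median of 614 CPM per kilobase, and it was above every other member in 16 of 16 libraries. Cnp (median 29.6) and Mbp (24.7) followed at a like level, with Cnp above Mbp in 7 of 16 libraries, so their order is not set by these data. Mbp was above Mag (9.36) in 16 of 16 libraries. Mag was above Mobp (5.56) in 12 of 16, and Mobp was above Cryab (4.25) in 12 of 16, so these neighbours overlapped. Mal (0.453), Mog (0.152) and Cldn11 (0.0692) were at the low end.

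**Figure D1:**
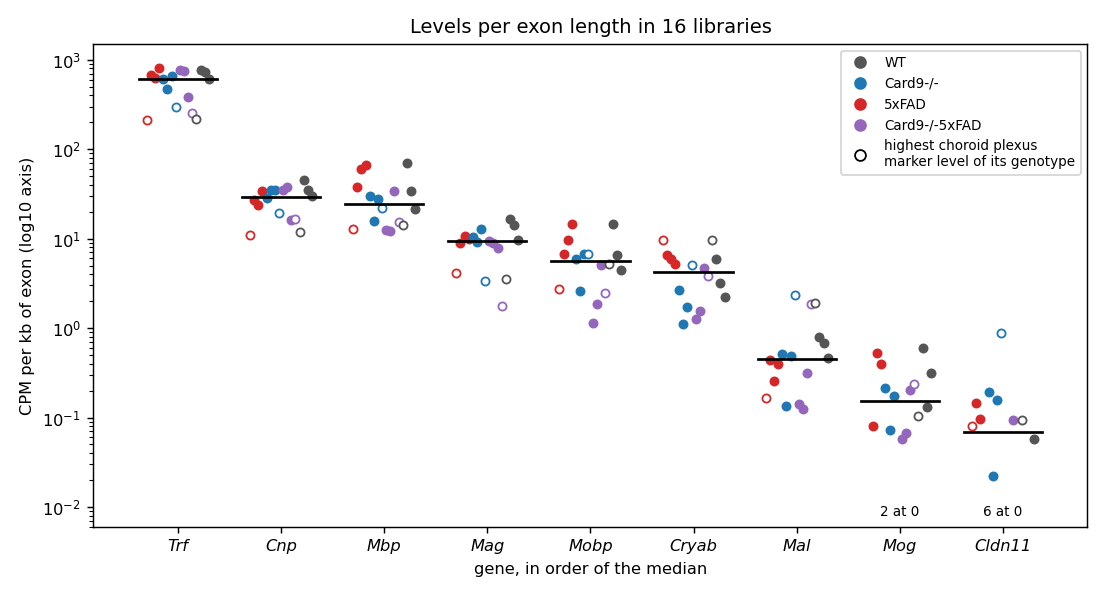
CPM per kilobase of exon (log10 axis) of the 9 genes in 16 libraries, in order of the median (black line), with points colored by genotype and open points for the library of highest choroid plexus marker level in each genotype. Trf lay at 212 to 818 and Cldn11 at 0.875 or below, and libraries with a value of 0 are counted at the foot of the plot.

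Trf was read at 728, 2542, 2447 and 2015 CPM in WT replicates 1 to 4, at 2029, 1565, 2174 and 987 in Card9-/-, at 705, 2248, 2050.0 and 2716 in 5xFAD and at 2555, 2464, 1287 and 839 in Card9-/-5xFAD. The lowest Trf value of each genotype was in the library of highest choroid plexus and neutrophil marker level, although Trf itself is also a choroid plexus gene. The genotypes overlapped, with means of 1933 ± 836 (SD, n = 4) in WT, 1689 ± 535 in Card9-/-, 1929.7 ± 863 in 5xFAD and 1786 ± 856 in Card9-/-5xFAD.

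Cnp showed the same order of libraries as Trf in broad outline. It stood at 43.1, 163, 128 and 110.4 CPM in WT, 104.7, 127, 126 and 70.3 in Card9-/-, 40.2, 98.7, 87.2 and 122 in 5xFAD, with 127, 137, 58.2 and 60.1 in Card9-/-5xFAD. The genotypes overlapped, and in WT, Card9-/- and 5xFAD the lowest library was again the one of highest choroid plexus marker level. Cnp kept a narrow ratio to Trf, between 4.26 and 8.11 reads per 100 reads of Trf over the 16 libraries, a 1.91-fold range.

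Mag, the adhesion protein that faces the axon, was counted at 14.3, 66.8, 57.5 and 39.3 CPM in WT, 42.6, 37.5, 51.7 and 13.7 in Card9-/-, 16.7, 36.5, 43.7 and 40.0 in 5xFAD, with 38.7, 36.1, 32.3 and 7.21 in Card9-/-5xFAD. The lowest library of each genotype was the same as for Trf, and the genotypes overlapped. Its ratio to Trf ran from 0.859 to 2.63 reads per 100 reads of Trf.

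Mbp followed another order. It was read at 121, 593, 288 and 183 CPM in WT, 253, 134, 233 and 185 in Card9-/-, 107, 322, 510.5 and 562 in 5xFAD, with 106, 103, 287 and 130.2 in Card9-/-5xFAD. The 3 highest values were WT replicate 2 and 5xFAD replicates 3 and 4, and all genotypes overlapped. In Card9-/-5xFAD, replicates 1 and 2 had low Mbp beside high Trf, and replicate 3 the reverse. Mbp ranged more widely against Trf than Cnp did, from 4.13 to 24.9 reads per 100 reads of Trf, a 6.03-fold range.

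Mobp, a small protein of compact myelin, was read at 36.1, 99.0, 44.9 and 30.8 CPM in WT, 40.1, 17.9, 46.2 and 46.1 in Card9-/-, 19.0, 45.9, 65.5 and 100.1 in 5xFAD, with 7.89, 12.7, 34.4 and 16.8 in Card9-/-5xFAD. Its 3 highest libraries were the 3 highest of Mbp, and its 2 lowest were Card9-/-5xFAD replicates 1 and 2, as for Mbp. Per 100 reads of Mbp there were 7.48 to 12.9 reads of Mobp in Card9-/-5xFAD, 12.8 to 17.8 in 5xFAD, 13.4 to 25.0 in Card9-/- and 15.6 to 29.9 in WT. Card9-/-5xFAD held the lowest ratios, and its highest library only just reached the lowest of 5xFAD.

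Cryab was read at 14.4, 8.64, 4.74 and 3.32 CPM in WT, 3.96, 1.65, 2.55 and 7.52 in Card9-/-, 14.4, 9.60, 8.81 and 7.63 in 5xFAD, with 1.87, 2.28, 6.95 and 5.61 in Card9-/-5xFAD. In WT, Card9-/- and 5xFAD its highest value was in the library with the lowest Trf, and the values of Card9-/-5xFAD lay below all of 5xFAD. Mal was read at 5.28, 2.23, 1.88 and 1.28 CPM in WT, 1.44, 0.372, 1.36 and 6.54 in Card9-/-, 0.455, 1.23, 0.719 and 1.09 in 5xFAD, with 0.395, 0.342, 0.869 and 5.21 in Card9-/-5xFAD. In WT, Card9-/- and Card9-/-5xFAD its highest value was in the library of highest choroid plexus marker level, and all 4 5xFAD values were below all 4 WT values. Mal rested on 3 to 30 reads per library and Cryab on 14 to 101.

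Mog had 47 reads in all 16 libraries together, between 0 and 12 per library, and its highest level was 1.03 CPM in WT replicate 2. Cldn11 had 21 reads in all, between 0 and 5 per library, and its highest level was 1.64 CPM in Card9-/- replicate 4. A count of 0 allowed up to 3 counts, which is 0.124 to 1.20 CPM at the depth of these libraries, counting error only, so differences of Mog and Cldn11 between genotypes were not detectable at this depth.

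**Figure D2:**
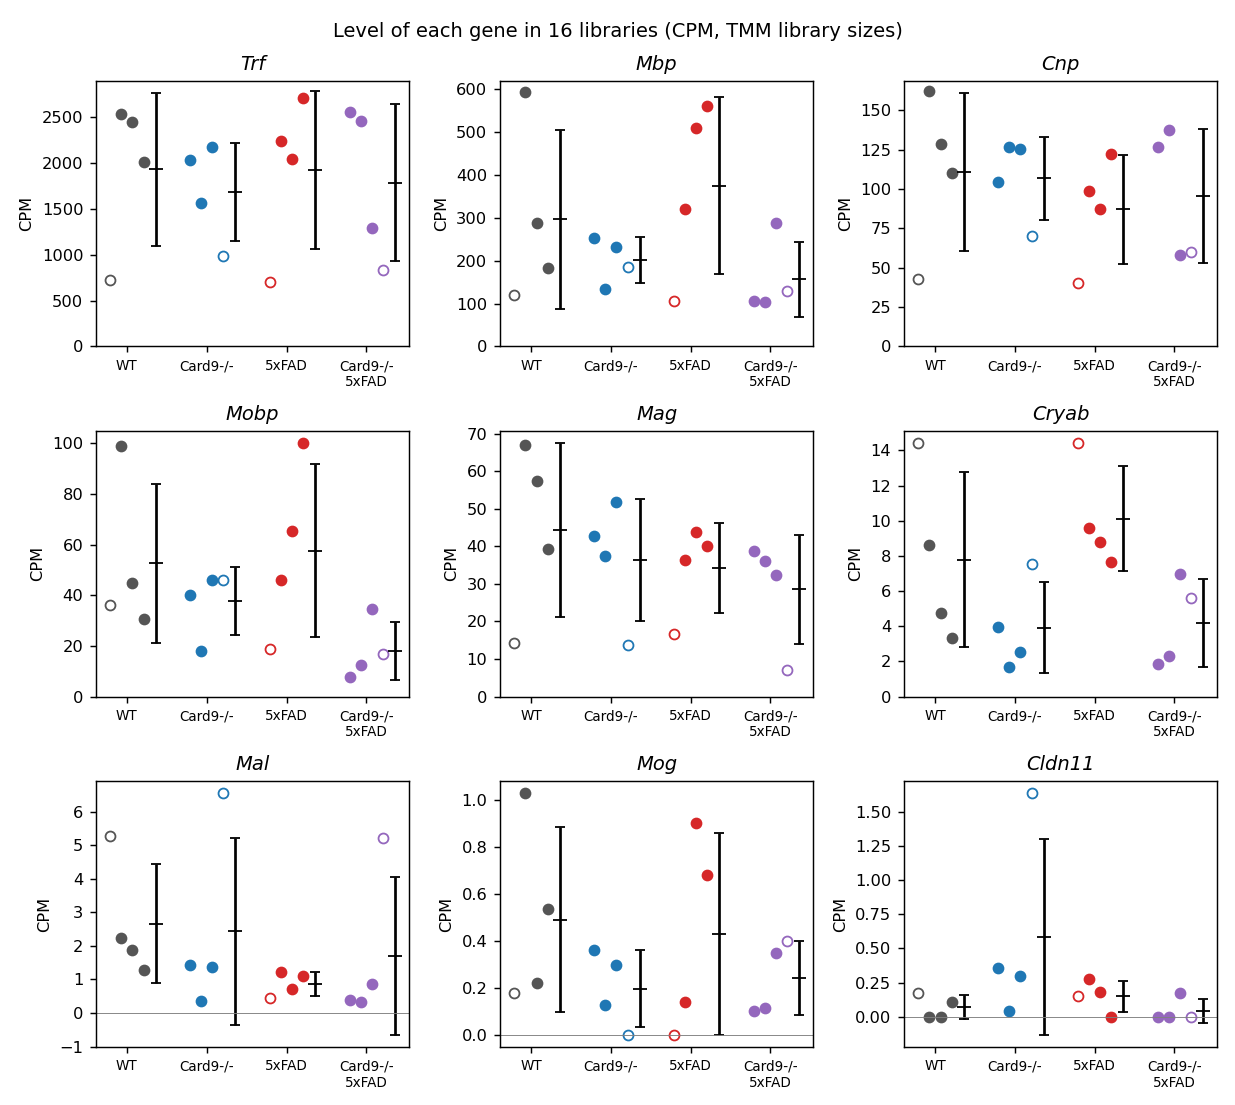
CPM of each of the 9 genes by genotype on linear axes, 1 point per library in order of replicate number, with the mean and SD of 4 libraries beside them and open points for the library of highest choroid plexus marker level in each genotype. The open points lie low for Trf, Cnp and Mag and high for Cryab in WT, Card9-/- and 5xFAD.

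Across the 16 libraries the 7 genes gave 21 pairs, compared on log2 CPM with a permutation test and Benjamini-Hochberg adjustment over the 21. Mbp and Mobp rose and fell together with Pearson's r = 0.89 (Spearman's rho 0.87, permutation p = 1e-05, adjusted p = 0.00021), the smallest p that 100000 resamples can give. Without the 2 libraries farthest from the median of Mbp r was 0.83, and with genotype means taken out it was 0.91. Cnp and Trf gave r = 0.92 (rho 0.82, permutation p = 2e-05, adjusted p = 0.00021), r = 0.84 without the 2 farthest libraries and 0.96 with genotype means out. Mag gave r = 0.87 with Trf (rho 0.68, permutation p = 0.00012, adjusted p = 0.00084) and 0.79 with Cnp (rho 0.67, permutation p = 0.0007, adjusted p = 0.00367). Without the 2 farthest libraries Mag gave 0.88 with Trf and 0.88 with Cnp, and with genotype means out 0.90 and 0.82. Mbp was related to Mag as well, with r = 0.55 (rho 0.61, permutation p = 0.0259, adjusted p = 0.0907) and 0.47 without the 2 farthest libraries. Mbp and Trf gave r = 0.51 (rho 0.39, permutation p = 0.0456, adjusted p = 0.106), Mbp and Cnp 0.36 (rho 0.15, permutation p = 0.169, adjusted p = 0.239) and Mobp and Mag 0.35 (rho 0.52, permutation p = 0.184, adjusted p = 0.241). The lowest values between Mbp or Mobp and these 3 genes were r = 0.24 for Mobp and Trf (rho 0.29, permutation p = 0.37, adjusted p = 0.409) and 0.15 for Mobp and Cnp (rho 0.056, permutation p = 0.58, adjusted p = 0.609). The last 2 rose to 0.67 and 0.52, and Mobp and Mag to 0.59, without the libraries farthest from the median of Mobp. Cnp and Cryab ran opposite, with r = -0.65 (rho -0.60, permutation p = 0.0069, adjusted p = 0.029) and -0.41 without the 2 farthest libraries.

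The relations of Trf, Cnp and Mag rested in part on the 4 libraries of highest choroid plexus marker level. In the other 12, chosen after the values were seen, Cnp and Trf gave r = 0.73 (permutation test, adjusted p = 0.0444), Mag and Trf 0.47 (adjusted p = 0.212) and Mag and Cnp 0.58 (adjusted p = 0.133). Mbp and Mobp held at 0.96 (adjusted p = 0.00042). Cryab, which gave r = 0.33 with Mbp (adjusted p = 0.25) over 16 libraries, gave 0.90 over the 12 (adjusted p = 0.000945), and Mal gave 0.68 with Mbp (adjusted p = 0.0492). Mobp gave 0.81 with Cryab (adjusted p = 0.00665) and 0.77 with Mal (adjusted p = 0.0180), while Mal and Cryab gave 0.57 (adjusted p = 0.136). Mag gave 0.69 with Mal (adjusted p = 0.0444), where over 16 libraries it gave -0.51 (adjusted p = 0.106). Cnp and Cryab gave -0.36 (adjusted p = 0.42). WT replicate 1, Card9-/- replicate 4 and Card9-/-5xFAD replicate 4 also had the fewest reads of their genotype, at 5346747, 3229322 and 2970148. For 5xFAD replicate 1, at 7188423 reads, this was not so, since replicate 3 had 6355823. The part of depth, or of RNA from the choroid plexus, neutrophils, monocytes, astrocytes or border-associated macrophages, in these values was not tested.

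**Figure D3:**
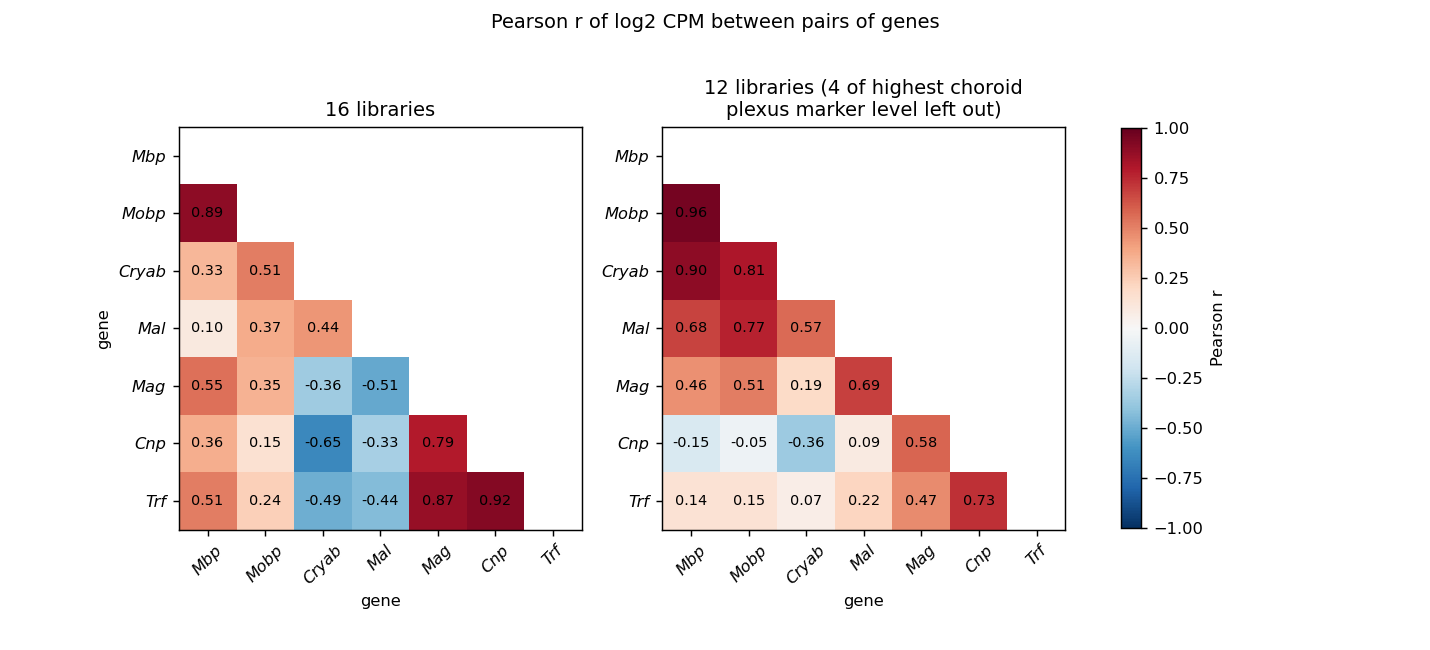
Pearson's r of log2 CPM for the 21 pairs of the 7 genes tested, over 16 libraries (left) and over the 12 that remain without the library of highest choroid plexus marker level in each genotype (right). Mbp and Mobp stand at 0.89 and 0.96, Cnp and Trf at 0.92 and 0.73, and Mbp and Cryab at 0.33 and 0.90.

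**Figure D4:**
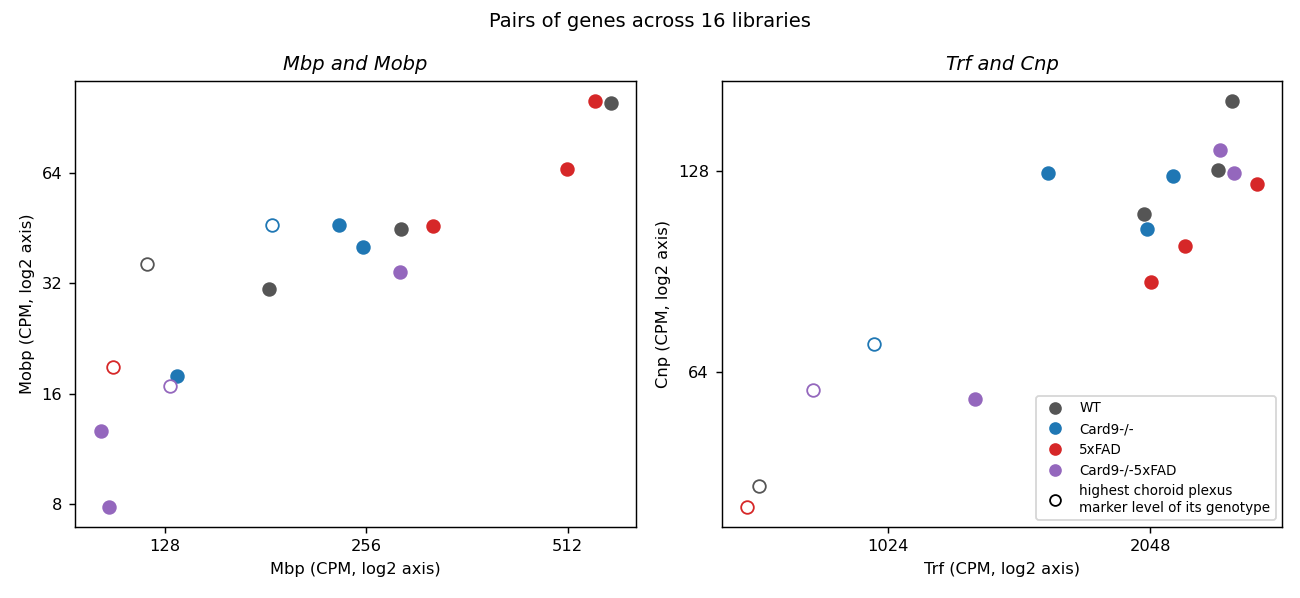
CPM on log2 axes of Mobp against Mbp (left) and of Cnp against Trf (right), 1 point per library, colored by genotype, with open points for the library of highest choroid plexus marker level in each genotype. In the right plot the open points hold the lowest Trf values, 705 to 987 CPM, and in the left plot they mix with the others.

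Genes outside the group differed in likeness too, given as a description over 16 libraries that share depth and sort. Most like Mbp was Plekhb1 (r = 0.96), and most like Mobp were Bcas1 (0.93) and Plekhb1 (0.92), and both genes were on the list of other myelin and oligodendrocyte genes. Most like Trf were B3galnt1, Ptpn6 and Fkbp8 (each 0.98), most like Cnp were Vis1 (0.99) and Dusp6 (0.98), and most like Mag were B3galt4 (0.98) and Slc46a1 (0.98), none of them on that list. Trf passed r = 0.5 with 7 of 14 microglia markers and with 4011 of all 14512 other genes. Mag passed it with 7 of 14 and 3948, Cnp with 6 of 14 and 4237, Mbp with 3 of 14 and 932. For Cryab it was 3 of 14 and 2652, for Mal 2 of 14 and 2834, and for Mobp 0 of 14 and 250. Cryab passed it with 7 of 7 tested choroid plexus markers, Mobp with 5, Mal with 3, Mbp with 1 and Trf, Cnp and Mag with 0. The 10 genes most like the mean of the 7, by standardized log2 CPM, were Itm2a (0.91), Plekhb1 (0.90), Esam (0.88), Efna1 (0.88), Atg4a (0.84), Eci2 (0.83), Angptl7 (0.82), Slc9a3r2 (0.82), H1f2 (0.81) and Aldh7a1 (0.80).

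Within a genotype, the SD of log2 CPM was 0.84 for Mbp, 0.83 for Mobp, 0.92 for Mag, 0.67 for Cnp, 1.14 for Mal, 0.79 for Cryab and 0.77 for Trf, above the median of 0.62 over all genes tested. Differences between genotypes are read against this spread.

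In 5xFAD against WT, the comparison of the transgenes with Card9 intact, 0 of 7 members passed a false discovery rate (FDR) of 0.1 (edgeR's quasi-likelihood test with Benjamini-Hochberg adjustment over all genes), 0 had an unadjusted p under 0.05 and DESeq2 called 0. Of all genes tested 2.09% passed. The log2 fold changes were 0.34 for Mbp, 0.13 for Mobp, -0.38 for Mag, -0.35 for Cnp, 0.38 for Cryab and -0.0025 for Trf, each smaller than its SE. Mal, at -1.56 (SE 0.90, FDR = 0.565), was the 1 member whose groups did not overlap, as was true in this direction for 3.69% of all genes. The median of the 7 was -0.0025 and that of all genes -0.15.

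In Card9-/-5xFAD against 5xFAD, which asks what the deletion of Card9 changes among mice with the transgenes, 0 of 7 members and 0 of all genes (0%) passed in edgeR, while DESeq2 on all libraries called 2 genes and no member. Mobp was at -1.69 (SE 0.55, unadjusted p = 0.00704), Cryab at -1.31 (SE 0.56, unadjusted p = 0.0333) and Mbp at -1.26 (SE 0.54, unadjusted p = 0.0329), all with FDR = 0.993 in edgeR. These 3 of 7 had an unadjusted p under 0.05 and were lower, against 1.43% of all genes. With the replicate number as a block Cryab had an unadjusted p = 0.0517 and the count was 2. Without Card9-/-5xFAD replicate 1, Cryab (unadjusted p = 0.0909) and Mbp (0.0810) both left the count, and without replicate 2 likewise (0.0865 and 0.0822), so that only Mobp remained. Cryab did not overlap between the groups, as was true in this direction for 0.923% of all genes, while Mobp and Mbp overlapped, because 5xFAD replicate 1 lay below Card9-/-5xFAD replicate 3. Mag (-0.25, SE 0.53), Trf (-0.11, SE 0.48), Cnp (0.14, SE 0.43) and Mal (0.69, SE 0.95) were each closer to 0 than their SE. Mal turned to -0.76 without Card9-/-5xFAD replicate 4, its 1 high library. The median of the 7 was -0.25, where that of all genes was 0.14.

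Tested markers of the choroid plexus were lower in the same comparison. Of the 10, the 7 that could be tested were all lower in Card9-/-5xFAD, with a median log2 fold change of -2.11, 2 at an unadjusted p under 0.05 and 0 by FDR in edgeR (lowest FDR = 0.993). Card9-/-5xFAD replicates 1 and 2, with the lowest Mobp, Mbp and Cryab of their genotype, were also the libraries with 3.16 and 32.5 CPM of these markers. Without the 4 libraries of highest choroid plexus level the changes were -1.96 for Mobp, -1.49 for Mbp and -1.28 for Cryab, with FDR = 0.884 in edgeR, and the remaining libraries still held 266 to 870 CPM of these markers in 5xFAD and 3.16 to 516 in Card9-/-5xFAD. The part of choroid plexus RNA in the difference was not tested. Fewer cells of a type and less RNA per cell cannot be told apart in bulk RNA. Leaving out 1 library at a time moved Mobp between -2.24 and -1.39, Mbp between -1.75 and -1.09 and Cryab between -1.72 and -1.06.

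**Figure D5:**
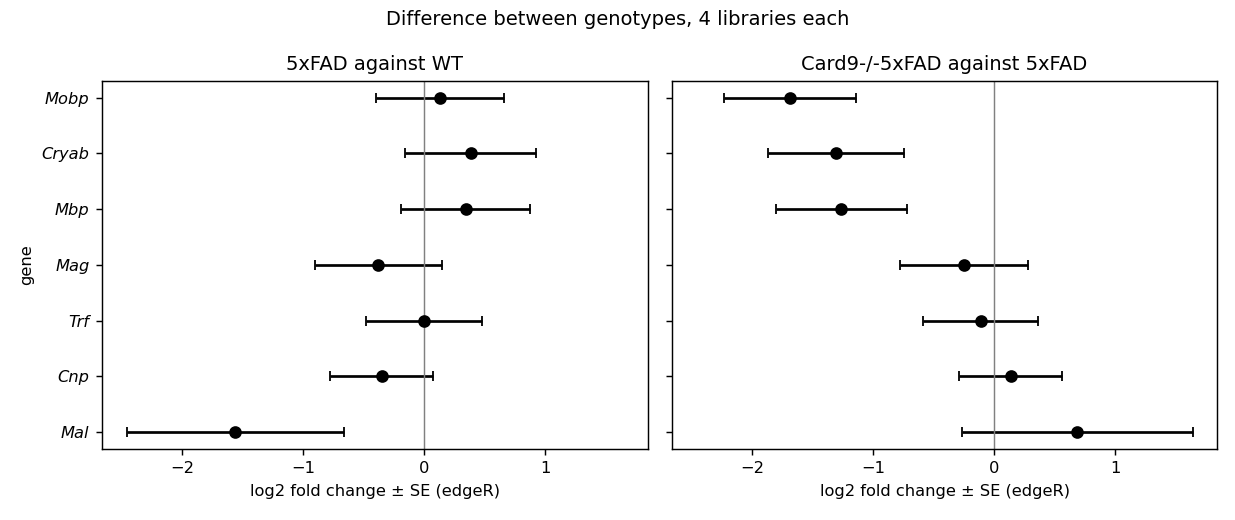
Log2 fold changes with SE (edgeR, 4 libraries against 4) of the 7 genes tested in 5xFAD against WT (left) and Card9-/-5xFAD against 5xFAD (right). On the right Mobp, Cryab and Mbp lie at -1.69, -1.31 and -1.26 and the other 4 genes lie within 1 SE of 0, and none of the values passed an FDR of 0.1.

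The other comparisons called 0 members in edgeR or DESeq2, and 0 had an unadjusted p under 0.05 in the 3 contrasts that follow. In Card9-/-5xFAD against Card9-/-, where 1.97% of all genes passed, the members ran from -1.07 for Mobp (SE 0.54, FDR = 0.448) to 0.12 for Cryab (SE 0.57, FDR = 0.954). In Card9-/- against WT 0% passed in edgeR and 5 genes in DESeq2 on all libraries. The members ran from -1.05 for Cryab (SE 0.56, FDR = 0.970) to -0.06 for Cnp (SE 0.42, FDR = 0.992). All 7 were below 0, as were 40.5% of all genes, whose median was 0.11. The interaction of Card9 genotype and transgenes, where 0% passed in edgeR and 1 gene in DESeq2, ran from -1.19 for Mobp (SE 0.75) to 0.95 for Mal (SE 1.28), so the effect of the deletion was not shown to differ with the transgenes. A test of any difference among the 4 genotypes, passed by 4.49% of all genes, gave Mobp the lowest FDR among the members (edgeR FDR = 0.269). These comparisons share libraries and are not independent of each other.

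Of 34 other myelin and oligodendrocyte genes 13 passed the filter. The 34 summed to 272 to 1024 CPM, with Evi2a (at most 568 CPM) and Enpp2 (at most 506 CPM) reaching the highest levels. In 5xFAD against WT 0 of the 13 were called in edgeR, against 2.09% of all genes, and 0 had an unadjusted p under 0.05. Their median log2 fold change was -0.26, and that of all genes -0.15. In Card9-/-5xFAD against 5xFAD 0 were called and 11 of 13 were lower, with a median of -0.93. Of the 13, the 3 with an unadjusted p under 0.05 were Tubb4a (-1.76), Bcas1 (-1.43) and Plekhb1 (-1.33), named after their values were seen. Among all genes 1.43% were lower at such a p. Plekhb1 and Bcas1 were the genes outside the group most like Mbp and Mobp across libraries. The libraries of this contrast were part of that comparison, so the lower values of these genes are not separate support. Ermn, a cytoskeletal protein of mature oligodendrocytes, reached its highest level of 5.89 CPM in Card9-/- replicate 4. Sox10 had 19 reads in all, Olig1 48, Opalin 40 and Ermn 114. Of 10 markers of oligodendrocyte precursors, which summed to 0.528 to 18.3 CPM, only Cspg4 passed the filter. It passed through the libraries with the transgenes, as the 10 summed to at most 1.37 CPM in WT and 1.96 CPM in Card9-/-. Its log2 fold change was 5.70 in 5xFAD against WT and 5.25 in Card9-/-5xFAD against Card9-/-. Because Cspg4 was kept through the groups where it was high, its test is not read as a result on precursors. Pdgfra, the defining marker, had 17 reads in all.

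The 9 genes lie on 7 chromosomes of GRCm38 (GENCODE M21), and all are protein coding. Mbp lies on chromosome 18 (82475146 to 82585637, plus strand), Mobp on 9 (120149707 to 120181484, plus), Mag on 7 (30899176 to 30914873, minus), Mog on 17 (37010743 to 37023398, minus), Cnp on 11 (100574904 to 100591729, plus), Mal on 2 (127633226 to 127656695, minus), Cldn11 on 3 (31149920 to 31164324, plus), Cryab on 9 (50751325 to 50756636, plus) and Trf on 9 (103204001 to 103230444, minus). Counts were per gene, so the 16 annotated transcripts of Mbp, among them the longer golli transcripts that are also made outside oligodendrocytes, cannot be told apart. Trf shares 63.5% of its exon bases with Gm20425, a model on the same strand that had no row in the table, so reads of the 2 cannot be told apart. Cryab shares 17.0% of its exon bases with Hspb2 on the other strand, which had 2 reads in all, and Cnp shares 4.23% with Dnajc7 on the other strand, which had 166 to 3226 reads per library. The strand setting of the counting is not given in the sources used here.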

How the data were processed

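CD11b+ brain cells of 4 genotypes were sequenced in 16 libraries, 4 per genotype. The authors deposited raw read counts per gene, made with HTSeq from reads that HISAT2 had placed on mm10 and Samtools had filtered. Their versions are not given in the sources used here. Counts per library were 2970148 to 19333325, so low genes such as Mog carry large counting error. All 16 columns were matched to samples by their names, and 0 columns were left unmatched.

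Groups followed the labels. The tests used edgeR 4.0.16 in R 4.3.3 (glmQLFit and glmQLFTest, TMM, filterByExpr with a minimum count of 10), with every library in 1 fit of the 4 genotypes and no covariate, and an FDR of 0.1. SEs came from the fold change and F. CPM used TMM library sizes, and log2 CPM a prior count of 2. Correlations used 100000 permutations. The steps were tested on simulated counts with known changes. Alternatives were DESeq2 1.42.0 (all libraries, or the groups compared, the latter added after seeing the data), its size factors, other filters, an FDR of 0.05, edgeR on the groups compared, the replicate number as a term, each library left out, and, added after seeing the data, 4 libraries left out together.

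The members and lists, and the tests, were chosen with earlier results of these data known. Named are the 9 members, Card9, the myelin markers Sox10, Olig1, Opalin and Ermn (1 further marker of the rule is not reported here), list genes that passed, and the 10 genes most like the members' mean; others were named after their values were seen. Exon lengths and positions are from GENCODE M21. Copies of 1 library among replicates were checked for (24 pairs, lowest chi-square per degree of freedom 6.28), and none was found.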

Additional observations from a re-analysis of the deposited data

Results flagged for a closer look

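In Card9-/-5xFAD replicate 3, Mbp stood at 287.1 CPM, where the other 3 libraries of that genotype held 103 to 130.2 CPM. Mobp was also highest of its genotype there, at 34.4 CPM. In Card9-/-5xFAD replicate 4, Mal stood at 5.206 CPM, on 13 reads, where the other 3 libraries held 0.342 to 0.869 CPM. Each was a single library whose gap to the nearest of the others took up more of the range of its genotype than Dixon's 95% limit allows for 4 values. Over the 32 sets of 4 values examined, chance alone flags about 1 in 20.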

How the results depend on the processing

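No member was called in any of 114 recomputations of the 6 comparisons, and the lowest FDR was 0.255 (Mal, 5xFAD against WT, DESeq2 on only the groups compared). Recomputed log2 fold changes were counted for every tested member in 5xFAD against WT and in Card9-/-5xFAD against 5xFAD. In the other contrasts only the lowest and the highest member were counted. Of these 328 values 294 kept their sign, and the 34 that turned were of values smaller than their SE. Trf in 5xFAD against WT turned to 0.058 with DESeq2 size factors in edgeR, 0.028 with no filter, 0.11 with at least 10 counts in every library, 0.051 with DESeq2 on all libraries, 0.059 with DESeq2 on the groups compared, 0.11 with edgeR on the groups compared and 0.034 without the 4 libraries of highest choroid plexus level. Without those 4 libraries Mal was at -1.01 in Card9-/-5xFAD against 5xFAD and -0.19 in the interaction. With the replicate number as a block the members called stayed at 0, Trf in 5xFAD against WT was at 0.030, Mobp at -0.041, and Cnp in Card9-/- against WT at 0.018. The numbers did not pair the samples: libraries of the same number gave r from -0.71 to 0.73 of their deviations (median 0.14, other numbers 0.02), and 5 of 16 correlated best with their own number. Leaving out 1 library at a time gave -0.28 to 0.28 for Trf and -0.12 to 0.63 for Mobp in 5xFAD against WT, -0.32 to 0.19 for Cnp in Card9-/- against WT, -0.29 to 0.59 for Cryab in Card9-/-5xFAD against Card9-/-, and -0.48 to 1.96 for Mal in the interaction. In Card9-/-5xFAD against 5xFAD it gave -0.76 to 1.07 for Mal, -0.11 to 0.31 for Cnp, -0.39 to 0.12 for Trf and -0.48 to 0.061 for Mag. Of the 21 pairs, 5 were correlated positively and 1 negatively at an adjusted p under 0.1. The negative ones were 6 with genotype means taken out, 0 without the 4 libraries, and 0 to 4 leaving out 1 library (0 without WT replicate 1, 4 without 5xFAD replicate 1), and the positive ones 4 to 8 (8 without 5xFAD replicate 1). The cause was not tested. Depth limits Mog, Cldn11 and Mal most, with at most 30 reads in a library.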
